A study of Mus musculus with 6 samples.

Results

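The genes of natural killer (NK) cells followed here in tumor RNA, without the granzymes, were *Ncr1*, *Klrb1c*, *Klrk1*, *Klrd1*, *Klrc1*, *Nkg7*, *Il2rb*, *Eomes*, *Tbx21* and *Xcl1*. The list was drawn up with earlier results of these data known, and its members were matched to the tables by gene symbol. All 10 were found among the 55536 genes with raw counts and the 34685 genes with deposited normalized values. HCA-1, a hepatocellular carcinoma (HCC) line of the mouse, had been implanted in the livers of male C3H mice (C3H/HeNCrNarl in the methods) that were 6–8 weeks old at implantation. RNA from 3 untreated tumors (controls 5, 6 and 7) was compared with RNA from 3 tumors given GOx-DOX-LGP (treated tumors 1, 2 and 5), a nanogel with glucose oxidase (GOx) in its core and doxorubicin (DOX) in its shell. The nanogel was injected intravenously on days 18, 19 and 20, whereas the same labels place the transcriptome analysis on day 17, after 3 h of circulation, so the labels conflict. The study's supplement describes tumor harvest after the last injection for RNA used in RT-qPCR, and its sequencing paragraph names no day. The controls received no empty nanogel and no single agent, so the effects of GOx, DOX and the carrier cannot be told apart. All 6 libraries came from 1 implanted cell line, and each sample was whole tumor. In such samples a change in NK cell number and a change in RNA per NK cell cannot be told apart.

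NK cells are innate lymphocytes that kill stressed or transformed cells without prior sensitization. Activating receptors such as NKp46 and NKG2D and inhibitory receptors such as CD94/NKG2A set whether a target is attacked, interleukin 15 keeps the cells alive through receptors that contain the subunit encoded by *Il2rb*, and the T-box factors Eomes and T-bet direct their maturation. Apart from *Ncr1*, most of these genes are also used by activated CD8 T cells, and the liver in addition holds type 1 innate lymphoid cells that share many of them.

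The libraries held 15529940 to 18401178 counts. Levels are given in CPM, counts relative to a library size scaled by TMM factors, and these factors ran from 0.569 in control 7 to 1.241 in control 5. A floor of 3 counts stood at 0.132 to 0.323 CPM. Control 5 stood apart from the other controls before any NK cell gene was considered. Its log2 CPM over all genes tested correlated with those of controls 6 and 7 at r = 0.73 and 0.659, and with the treated tumors at r = 0.966 to 0.975 (across genes, as a description). Albumin transcript (*Alb*), a product of hepatocytes, measured 353 CPM in control 5 against 73800 and 128200 CPM in controls 6 and 7. It measured 1893, 733 and 1061 CPM in treated tumors 1, 2 and 5. The median and the edgeR calls of the NK cell genes are therefore given with and without control 5, as are the medians of most other lists.

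By edgeR's quasi-likelihood test with Benjamini-Hochberg adjustment over 15374 genes, 0 of the 10 NK cell genes passed an adjusted p of 0.05, where 0% of all genes tested did. With TMM scaling the mean was higher in treated tumors for all 10 and the groups overlapped for 7. Scaling by the T cell receptor genes *Cd3d*, *Cd3e* and *Cd3g* lowered the median log2 fold change of all genes from 0.02 to -1.59, and 7 of the 9 NK cell genes tested were then negative. *Nkg7*, *Il2rb* and *Eomes* lay higher in every treated tumor than in every control, which was true of 8.87% of all genes tested. The same 3 genes had an unadjusted edgeR p under 0.05 and a higher level, as did 2.87% of all genes tested. With DESeq2, *Eomes* (adjusted p = 0.00142) and *Nkg7* (adjusted p = 0.046) passed, where 0.994% of the genes with a DESeq2 adjusted p passed in that direction. With limma voom and sample quality weights 6 passed, where 29.2% of genes did so in that direction. Without control 5, edgeR called 6 NK cell genes higher (*Klrk1*, *Klrd1*, *Klrc1*, *Nkg7*, *Il2rb* and *Eomes*) and 22.2% of 16249 genes. Without control 5, 7 NK cell genes lay higher in every treated tumor than in every control, as did 36.8% of these genes. The filter on low counts kept 9 NK cell genes, with log2 fold changes from 0.59 to 1.54 and a median of 1.17, beside a median of 0.02 over all genes tested. The median of the NK cell genes was 1.76 without control 5, 0.77 without treated tumor 5 and -0.46 with scaling by the *Cd3* genes.

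**Figure D1:**
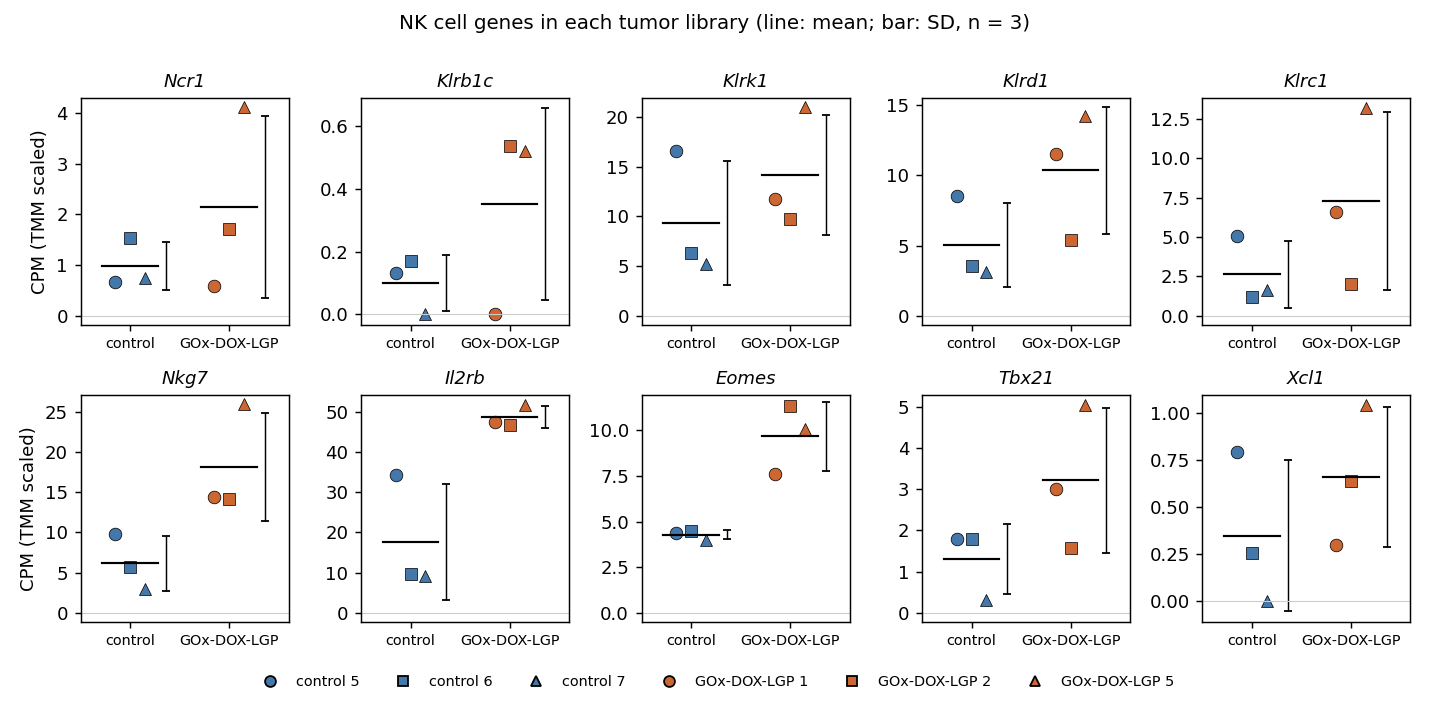
Level of each NK cell gene (y axis, TMM-scaled CPM, linear, each panel with its own range) in the 3 control tumors (blue) and the 3 GOx-DOX-LGP tumors (orange). Each symbol is 1 library, the line is the group mean and the bar its SD (n = 3). *Nkg7*, *Il2rb* and *Eomes* do not overlap between groups under this scaling, and treated tumor 5 is the highest of all libraries for 8 of the 10 genes.

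The 250 bases before the transcription start are shown for 3 of these genes, *Ncr1* as the gene most particular to NK cells and *Nkg7* and *Xcl1* as the 2 whose windows hold the T-box letters that Eomes and T-bet bind. The sequences are from RefSeq on GRCm38.p6, where 8 of the 10 genes were matched. Capitals mark T-box letters (TCACACC or GGTGTGA) and RUNX letters (TGTGGT or ACCACA), searched on both strands. They cover chr7:4337465-4337714 (plus strand) for *Ncr1*, chr7:43436888-43437137 (plus strand) for *Nkg7* and chr1:164935523-164935772 (minus strand) for *Xcl1*.
Ncr1: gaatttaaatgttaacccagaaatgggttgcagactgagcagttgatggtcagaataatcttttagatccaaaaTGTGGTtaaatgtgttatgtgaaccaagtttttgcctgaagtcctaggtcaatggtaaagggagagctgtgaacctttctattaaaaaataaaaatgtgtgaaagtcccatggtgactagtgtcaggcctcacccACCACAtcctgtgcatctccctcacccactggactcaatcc
Nkg7: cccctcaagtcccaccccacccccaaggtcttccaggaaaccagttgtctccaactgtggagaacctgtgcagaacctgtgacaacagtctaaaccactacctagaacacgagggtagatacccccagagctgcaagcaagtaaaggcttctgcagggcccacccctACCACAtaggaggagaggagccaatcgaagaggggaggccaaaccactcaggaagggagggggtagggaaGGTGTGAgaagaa
Xcl1: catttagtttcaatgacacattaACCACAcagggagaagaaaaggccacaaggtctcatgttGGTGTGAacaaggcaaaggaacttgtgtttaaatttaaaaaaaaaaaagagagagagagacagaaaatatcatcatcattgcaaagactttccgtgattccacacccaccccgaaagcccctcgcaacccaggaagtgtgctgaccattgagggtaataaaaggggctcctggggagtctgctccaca
In windows of 300 bases that add the first 50 transcribed bases, T-box letters were found in 2 of the 8 genes and in 3.98% of 32851 promoters. RUNX letters were found in 6 of the 8 and in 16.8% of promoters. ETS letters (CAGGAAG or CTTCCTG) were found in 3 of the 8, namely *Nkg7*, *Tbx21* and *Xcl1*, and in 13.3% of promoters. STAT letters (TTCNNNGAA, which reads the same on both strands) were found only in the *Nkg7* window among the 8, and in 8.3% of promoters. The T-box letters of *Nkg7* began 13 bases before the start and those of *Xcl1* 188 bases before it. Neither ETS nor STAT letters overlapped the capitals in these windows. *Eomes* held none of the 4 motifs. Such matches describe letters and do not show that a factor bound there.

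Among the activating receptors, *Ncr1* (ENSMUSG00000062524, chr7:4337724-4345164 on GRCm38) encodes NKp46, the receptor that marks NK cells and type 1 innate lymphoid cells. It measured 0.658, 1.53 and 0.753 CPM across controls 5, 6 and 7, and 0.593, 1.72 and 4.11 CPM in treated tumors 1, 2 and 5. Treated tumor 1 lay below every control and treated tumor 5 far above, so that the groups overlapped, at 0.979 ± 0.476 against 2.14 ± 1.80 CPM (SD, n = 3). The fitted difference was 1.13 ± 0.77 on the log2 scale (SE), with an edgeR adjusted p of 0.445. Without treated tumor 5 it was 0.29, and without control 5 it was 0.91. These levels rest on 7 to 18 counts in controls and on 12, 35 and 79 counts in treated tumors 1, 2 and 5.

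*Klrk1* (ENSMUSG00000030149, chr6:129610323-129623864) encodes NKG2D, which recognizes stress-induced ligands and is also carried by CD8 T cells. It measured 16.5, 6.28 and 5.17 CPM across controls 5, 6 and 7, and 11.7, 9.70 and 21.02 CPM in treated tumors 1, 2 and 5. Control 5 exceeded treated tumors 1 and 2, while the other controls lay below all of them. The log2 fold change of 0.59 ± 0.55 (SE) was the smallest among the 9 genes tested (edgeR adjusted p = 0.555). It was 1.33 without control 5 (edgeR adjusted p = 0.0271), 0.37 without control 6, 0.30 without control 7 and 0.23 without treated tumor 5. With control 5 as the lone control it was -0.21.

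*Klrb1c* (ENSMUSG00000030325, chr6:128778485-128789215) encodes NK1.1, an antigen by which NK cells are recognized in some mouse strains. It gave 3, 2 and 0 counts in controls 5, 6 and 7, and 0, 11 and 10 counts in treated tumors 1, 2 and 5. All 3 controls and treated tumor 1 were at or under the floor of 3 counts, and only treated tumors 2 and 5 stood above it, at 0.539 and 0.520 CPM. The gene was removed by the filter on low counts and was not tested, and 13.9% of its exonic bases are shared with *Gm44511* on the same strand. A difference was not detectable at these counts, and how well the reference sequence of this gene matches the C3H strain was not tested.

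The inhibitory receptor is a heterodimer of CD94, encoded by *Klrd1*, and NKG2A, encoded by *Klrc1*. *Klrd1* (ENSMUSG00000030165, chr6:129591782-129598775) measured 8.51, 3.56 and 3.12 CPM across controls 5, 6 and 7, and 11.5, 5.39 and 14.2 CPM in treated tumors 1, 2 and 5. *Klrc1* (ENSMUSG00000030167, chr6:129666015-129678973) measured 5.09, 1.19 and 1.61 CPM in the controls and 6.62, 2.01 and 13.2 CPM in the treated tumors, in the same order. Both chains had the same order of libraries among treated tumors, with tumor 2 lowest and tumor 5 highest, and in both control 5 lay above treated tumor 2. The log2 fold changes were 1.02 ± 0.55 for *Klrd1* (SE, edgeR adjusted p = 0.366) and 1.44 ± 0.84 for *Klrc1* (SE, edgeR adjusted p = 0.392). Without control 5 they were 1.66 (edgeR adjusted p = 0.022) and 2.41 (edgeR adjusted p = 0.0422), and without treated tumor 5 they were 0.77 (edgeR adjusted p = 0.635) and 0.73 (edgeR adjusted p = 0.708). Of the 50-base stretches of *Klrc1* transcripts, 38.6% also occur in *Klrc2* or *Klrc3*, the activating NKG2 chains, so its counts are uncertain. *Klrc2* measured 2.94, 1.27 and 0.646 CPM in the controls and 4.65, 1.18 and 6.24 CPM in treated tumors 1, 2 and 5. *Klrb1c*, *Klrd1*, *Klrk1* and *Klrc1* lie in this order within 900.5 kb of chromosome 6.

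*Nkg7* (ENSMUSG00000004612, chr7:43437073-43438249) encodes a granule membrane protein of NK cells and cytotoxic T cells that takes part in degranulation. It measured 9.78, 5.77 and 3.01 CPM across controls 5, 6 and 7, and 14.4, 14.2 and 25.9 CPM in treated tumors 1, 2 and 5. Every treated tumor lay above the highest control. The means were 6.19 ± 3.41 and 18.2 ± 6.71 CPM (SD, n = 3). The difference of 1.54 ± 0.50 on the log2 scale (SE) was the largest of the 9 genes tested. The edgeR adjusted p was 0.247. Without single libraries the log2 fold change ran from 1.22 to 2.06, the latter without control 5 (edgeR adjusted p = 0.00662).

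*Il2rb* (ENSMUSG00000068227, chr15:78479256-78495271) encodes the receptor subunit shared by interleukins 2 and 15. It measured 34.3, 9.67 and 9.15 CPM across controls 5, 6 and 7, and 47.3, 46.8 and 51.7 CPM in treated tumors 1, 2 and 5. The treated tumors lay at 48.6 ± 2.71 CPM (SD, n = 3), whereas the controls were split, with control 5 closer to the treated tumors than to controls 6 and 7. The log2 fold change was 1.45 ± 0.56 (SE, edgeR adjusted p = 0.266). It was 2.40 without control 5 (edgeR adjusted p = 9.33e-05) and 0.52 against control 5 alone.

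*Eomes* (ENSMUSG00000032446, chr9:118478212-118486132) encodes the T-box factor that distinguishes mature NK cells from most type 1 innate lymphoid cells of the liver, and that CD8 T cells use as well. It measured 4.39, 4.50 and 3.98 CPM across controls 5, 6 and 7, and 7.61, 11.3 and 10.0 CPM in treated tumors 1, 2 and 5. The 3 controls lay close together at 4.29 ± 0.271 CPM (SD, n = 3), control 5 among them, and every treated tumor lay above them. The log2 fold change of 1.17 ± 0.27 (SE) had the smallest error of the 9 genes tested, with an unadjusted edgeR p of 0.00497 and an adjusted p of 0.247. It ran from 1.06 to 1.34 when single libraries were left out, and was 1.15 against control 5 alone. With libraries scaled by pan-leukocyte genes it was 0.26 (edgeR adjusted p = 0.663), beside a median of -0.86 over all genes. Per 100 *Ptprc* counts *Eomes* stood at 3.78, 6.50 and 10.1 in controls 5, 6 and 7. In treated tumors 1, 2 and 5 it stood at 8.39, 9.83 and 8.68, with overlap. In the other T-box gene, *Tbx21* (ENSMUSG00000001444, chr11:97098071-97115331), which encodes T-bet, the levels were 1.80, 1.78 and 0.323 CPM across controls 5, 6 and 7. They were 3.02, 1.57 and 5.05 CPM in treated tumors 1, 2 and 5. Treated tumor 2 lay below controls 5 and 6, so that the groups overlapped, and the log2 fold change was 1.26 ± 0.71 (SE, edgeR adjusted p = 0.379). Without control 7 or without treated tumor 5 it was 0.83 in each case, and without control 5 it was 1.585.

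*Xcl1* (ENSMUSG00000026573, chr1:164931644-164935527) encodes the chemokine by which NK cells and CD8 T cells attract conventional type 1 dendritic cells. It gave 18, 3 and 0 counts in controls 5, 6 and 7, and 6, 13 and 20 counts in treated tumors 1, 2 and 5. In CPM, control 5 (0.790) lay above treated tumors 1 (0.297) and 2 (0.637), and only treated tumor 5 (1.04) exceeded every control. The log2 fold change of 0.72 ± 0.95 (SE) had the largest error of the 9 genes tested (edgeR adjusted p = 0.664), and it was 2.20 without control 5 (edgeR adjusted p = 0.12). Without control 7, treated tumor 5 or treated tumor 1 it was 0.26, 0.32 or 1.13, and against control 5 alone it was -0.25. *Gm20743* shares 18.7% of the exonic bases of *Xcl1* on the opposite strand, and whether the counting used the strand is not given in the sources used here.

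Set per kilobase of exon so that genes can be compared, *Nkg7* was the most abundant of the 10 genes in both groups, at 6.77 ± 3.72 CPM per kb in controls and 19.9 ± 7.34 CPM per kb in treated tumors (SD, n = 3). *Il2rb* (4.13 and 11.3 CPM per kb) and *Klrd1* (3.95 and 8.10 CPM per kb) followed in both groups, and the ranges of these 3 overlapped among controls. *Klrc1* and *Eomes* stood at 3.67 and 2.32 CPM per kb in treated tumors, and *Klrk1*, *Ncr1*, *Tbx21* and *Xcl1* between 1.26 and 1.97 CPM per kb, with ranges that overlapped. *Klrb1c* was last in both groups, at 0.0339 and 0.119 CPM per kb.

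The order of the libraries was similar from gene to gene. Treated tumor 5 held the highest level of all 6 libraries for 8 of the 10 genes and treated tumor 2 for the other 2, *Klrb1c* and *Eomes*. Control 7 held the lowest level for 8 genes, ties at 0 included, and control 5 the highest control level for 7. The mean log2 CPM of the 9 genes tested was 2.28, 1.47 and 0.81 over controls 5, 6 and 7, and 2.46, 2.33 and 3.38 in treated tumors 1, 2 and 5. By this mean control 5 lay just below treated tumor 2 and above the other controls.

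**Figure D2:**
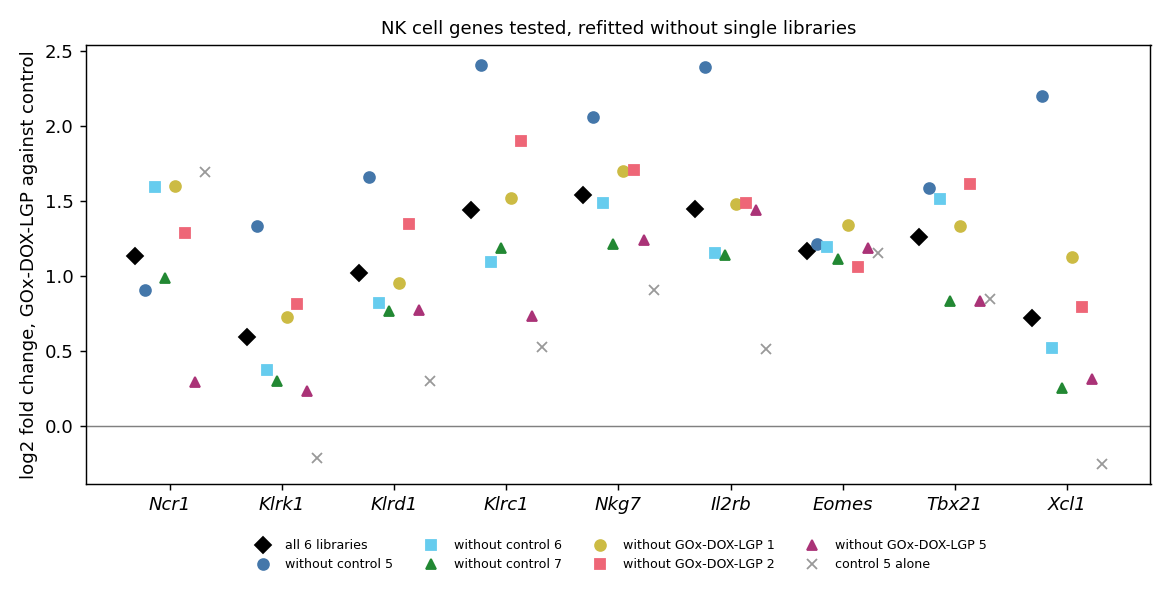
Log2 fold change of GOx-DOX-LGP against control (y axis, edgeR, TMM) for the 9 NK cell genes tested, with all 6 libraries (black diamonds), without each library in turn (colored symbols) and with control 5 as the lone control (crosses). *Eomes* stays between 1.06 and 1.34 in the fits without 1 library, whereas *Klrk1* and *Xcl1* fall below 0 against control 5 alone.

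Genes common to all leukocytes were measured beside the NK cell genes. All 12 pan-leukocyte genes had a positive log2 fold change (median 0.87, or 1.17 without control 5). Scaled by the *Cd3* genes the median was -0.63, beside -1.59 over all genes. Of the 12 genes, 9 lay higher without overlap (8.87% of all genes tested did), and 0 passed the edgeR test. The 3 largest were *Coro1a* (1.12), *Cd53* (1.07) and *Itgb2* (1.02). *Ptprc*, which encodes the leukocyte antigen CD45, measured 116, 69.2 and 39.3 CPM across controls 5, 6 and 7 and 90.8, 115 and 116 CPM in treated tumors 1, 2 and 5. Its groups overlapped through control 5, with a log2 fold change of 0.52 (edgeR adjusted p = 0.501).

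T cell receptor genes were measured in the same way. All 14 genes tested of the 15 for the T cell receptor and its coreceptors had a positive log2 fold change (median 1.37, or 1.87 without control 5). Scaled by the *Cd3* genes the median was -0.16, beside -1.59 over all genes. The *Cd3* genes are themselves in this list, so a value near 0 follows in part from the scaling. Of the 14 genes, 10 lay higher without overlap, against 8.87% of all genes, and 0 passed edgeR. *Cd6* (1.73), *Cd3d* (1.73) and *Cd247* (1.67) were the largest. The order of the median of 1.37 and that of the NK cell genes was not tested. This order turned without control 7 (0.98 for T cell genes and 1.05 for NK cell genes). It also turned without treated tumor 2 (1.335 and 1.345) and with the hepatocyte score of each library as a covariate (0.968 and 0.987). *Cd3e*, a subunit of the T cell receptor complex, measured 11.3, 7.97 and 5.49 CPM across controls 5, 6 and 7 and 17.7, 20.2 and 29.5 CPM in treated tumors 1, 2 and 5. Its groups did not overlap, and its log2 fold change was 1.44 (edgeR adjusted p = 0.247, DESeq2 adjusted p = 0.0069). The part of T cells in the levels of the NK cell genes was not tested.

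Against *Ptprc* and *Cd3e* as references within each library, different NK cell genes were separated between groups. Per 100 *Ptprc* counts, *Nkg7* stood at 8.43, 8.33 and 7.67 over controls 5, 6 and 7 and at 15.9, 12.3 and 22.4 in treated tumors 1, 2 and 5. *Il2rb* stood at 29.6, 14.0 and 23.3 in the controls and at 52.1, 40.7 and 44.7 in treated tumors per 100 *Ptprc* counts. Both were higher in every treated tumor than in every control, and the other 8 genes overlapped. Per 100 *Cd3e* counts *Nkg7* stood at 86.8, 72.3 and 54.9 in the controls and at 81.3, 70.2 and 87.8 in treated tumors, with overlap. *Ncr1* per 100 *Cd3e* counts stood at 5.84, 19.2 and 13.7 in the controls and at 3.34, 8.50 and 13.9 in treated tumors, again with overlap. *Klrk1* was lower in every treated tumor by this measure, at 147, 78.7 and 94.1 against 66.02, 48.1 and 71.3. No other gene of the 10 was separated between groups per 100 *Cd3e* counts. The share of all genes separated by either ratio was not computed, so these numbers have no background beside them. These ratios are descriptions with 3 libraries a group, where an exact two-sided permutation test cannot go below p = 0.1.

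The edgeR fit was repeated under both references. With libraries scaled by the 12 pan-leukocyte genes, the median log2 fold change of the 9 NK cell genes was 0.32 and that of all genes -0.86. Scaled by the 3 *Cd3* genes it was -0.46, beside -1.59 over all genes, and only *Nkg7* and *Il2rb* kept a positive value, at 0.02 each. A scaling shifts all genes nearly alike, and the median of the NK cell genes moved together with that of all genes. Under TMM they were 1.17 and 0.02, so the distance between them was nearly kept and was not tested anew by these fits. Medians of other lists under these scalings stand beside the same medians of all genes. Relative to pan-leukocyte genes *Klrk1* alone was negative (-0.12), and relative to the *Cd3* genes 7 of the 9 were. None of the 9 passed edgeR's adjusted threshold under either scaling. Of all genes, 0 passed it under the pan-leukocyte scaling and 10438 under the *Cd3* scaling.

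**Figure D3:**
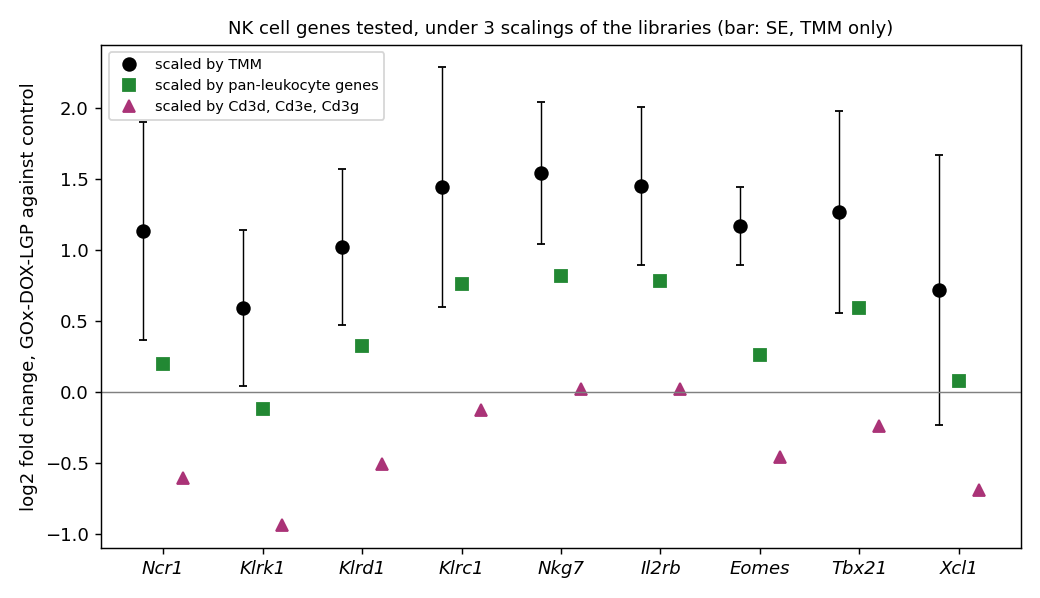
Log2 fold change of GOx-DOX-LGP against control (y axis) for the 9 NK cell genes tested, with libraries scaled by TMM (black circles, bar for the SE of the edgeR fit), by 12 pan-leukocyte genes (green squares) or by *Cd3d*, *Cd3e* and *Cd3g* (purple triangles). All 9 values are above 0 under TMM, 8 under the pan-leukocyte scaling and 2 under the *Cd3* scaling. The medians of all genes under these scalings are 0.02, -0.86 and -1.59.

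Other receptors and adaptors of NK cells formed a further list, also drawn up with earlier results of these data known. It includes *Klrc2* and *Klrc3*, which share part of their transcript sequence with *Klrc1*. Of 41 genes listed, 39 were found and 26 tested, 24 of these with a positive and 2 with a negative log2 fold change (median 0.89, or -0.61 when scaled by the *Cd3* genes). The median was 1.52 without control 5 and 0.55 without control 7. None passed the edgeR test, and 3 of the 26 lay higher without overlap, against 8.87% of all genes, namely *Klrg1* (1.21), an inhibitory receptor of mature NK and T cells, *Cd96* (1.21), a receptor for nectin-like ligands, and *Fcer1g* (1.06), a signaling chain shared with myeloid cells. *Fcgr3* (1.27), which encodes CD16 and is also expressed by macrophages, *Klrc2* (1.27) and *Txk* (1.23) had the largest values and overlapped. The Ly49 receptor genes *Klra4*, *Klra6*, *Klra8* and *Klra10* had 0 counts in every library. How well the reference sequence of these genes matches the C3H strain was not tested. The adaptor of NKG2D, *Hcst* (DAP10), measured 0.570, 0.594 and 0.861 CPM in the controls and 0.840, 1.18 and 2.13 CPM in treated tumors 1, 2 and 5, so that control 7 just exceeded treated tumor 1. *Tyrobp* (DAP12), an adaptor of activating receptors that macrophages express as well, measured 38.5, 33.8 and 22.1 CPM in the controls and 37.2, 67.1 and 54.2 CPM in treated tumors 1, 2 and 5.

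Of 13 transcription factors of NK cells and other group 1 innate lymphoid cells, 11 were tested, 8 with a positive and 3 with a negative log2 fold change (median 0.69), and none passed the edgeR test. *Id2*, an inhibitor of E proteins that NK cells require, measured 94.7, 416 and 475 CPM across controls 5, 6 and 7, and 104, 128 and 118 CPM in treated tumors 1, 2 and 5. Its log2 fold change of -1.50 (edgeR adjusted p = 0.275) came with the same split of controls as *Alb*, and control 5 lay with the treated tumors. *Runx3* (1.34), whose product binds RUNX letters, overlapped between groups, and *Klf2* (1.11), a regulator of lymphocyte trafficking, did not. The median of this list was -0.15 when scaled by the pan-leukocyte genes, 1.05 without control 5 and 0.33 without control 7.

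On the interleukin 2 and 15 axis, 12 of 15 genes were tested, 9 with a positive and 3 with a negative log2 fold change (median 0.63, or -0.15 when scaled by the pan-leukocyte genes). The median was 1.02 without control 5 and 0.40 without control 7. None passed the edgeR test. *Il2rg*, the common gamma chain that pairs with the product of *Il2rb*, measured 16.4, 6.36 and 3.87 CPM across controls 5, 6 and 7 and 19.8, 30.1 and 30.2 CPM in treated tumors 1, 2 and 5. It did not overlap (log2 fold change 1.58, edgeR adjusted p = 0.249). *Il15* itself measured 6.71, 7.89 and 5.60 CPM in the controls and 8.20, 13.4 and 10.3 CPM in treated tumors, also without overlap (log2 fold change 0.66, edgeR adjusted p = 0.313). *Il15ra*, which presents interleukin 15 to NK cells, was high in controls 6 and 7 only, at 12.6, 69.4 and 84.6 CPM across controls 5, 6 and 7 and 12.7, 11.1 and 15.4 CPM in treated tumors. Its log2 fold change was -2.09 (edgeR adjusted p = 0.247, DESeq2 adjusted p = 0.0388), and control 5 lay within the treated range. *Il12b* (2.13), a subunit of interleukin 12, and *Socs1* (1.67), an inhibitor of cytokine signaling, were the other largest values.

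The ligands of these receptors, and the receptor of XCL1, formed a list of 13 genes, of which 9 were found and 7 tested. Of these, 4 had a positive and 3 a negative log2 fold change (median 0.04, or -0.66 when scaled by the pan-leukocyte genes), and none passed the edgeR test. The median was 0.45 without control 5 and -0.16 without treated tumor 5. *H2-T23* encodes Qa-1, the ligand of CD94/NKG2A, and measured 180, 234 and 227 CPM in the controls and 248, 352 and 322 CPM in treated tumors 1, 2 and 5. It was the only gene of this list without overlap (log2 fold change 0.53, edgeR adjusted p = 0.354). Of the NKG2D ligands, *Raet1d* measured 4.61, 27.6 and 42.5 CPM across controls 5, 6 and 7 and 5.44, 5.78 and 4.16 CPM in treated tumors 1, 2 and 5. Its log2 fold change of -2.27 (edgeR adjusted p = 0.247, DESeq2 adjusted p = 0.0385) again came with high levels in controls 6 and 7. *Ulbp1* overlapped between groups, at 16.7, 4.24 and 1.29 CPM in the controls and 13.4, 12.9 and 10.7 CPM in treated tumors. *Raet1e* lay between 17.9 and 34.8 CPM and *H60b* between 0 and 1.19 CPM over all 6 libraries, and *H60c* had 0 counts throughout. *Xcr1*, the XCL1 receptor of conventional type 1 dendritic cells, measured 16.9, 6.53 and 4.84 CPM in the controls and 8.06, 8.43 and 12.9 CPM in treated tumors 1, 2 and 5, with a log2 fold change of 0.04.

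**Figure D4:**
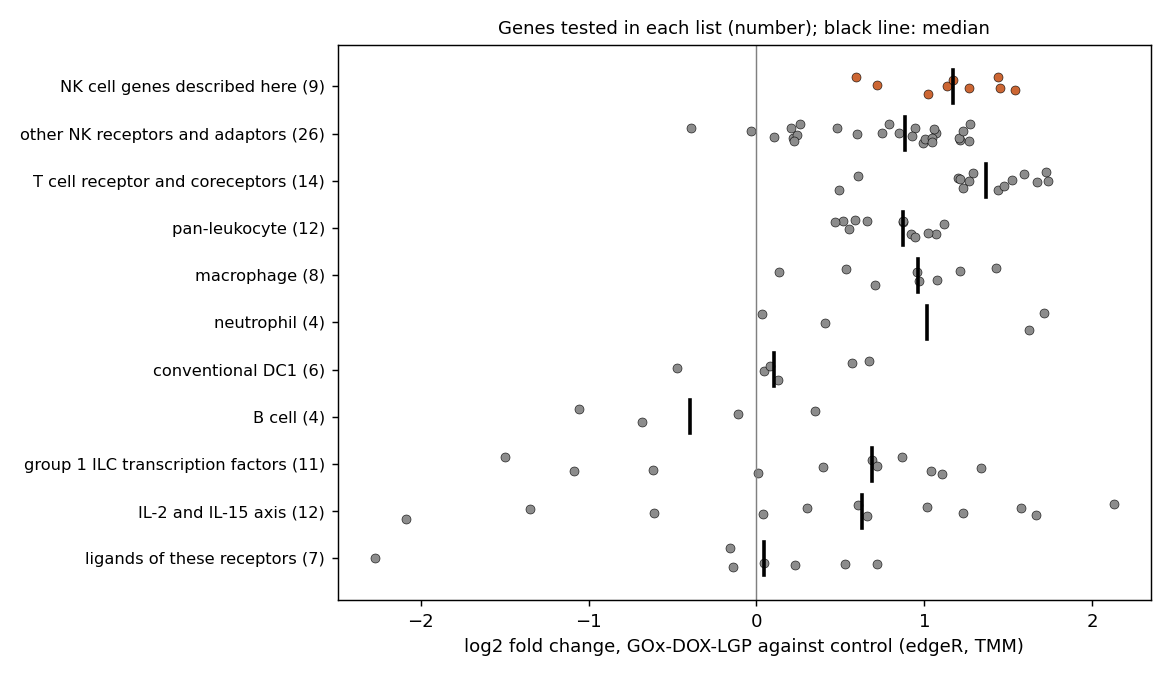
Log2 fold change of GOx-DOX-LGP against control (x axis, edgeR, TMM) for each gene tested of the NK cell genes (orange) and of 10 other lists (gray), with the number of genes tested in parentheses and the median as a black line. The medians are 1.17 for the NK cell genes, 1.37 for T cell genes and 0.87 for pan-leukocyte genes. All medians are negative under scaling by the *Cd3* genes, which also moves the median of all genes tested from 0.02 to -1.59.

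The defining markers of other cell types are given beside these results. All 12 hepatocyte genes had negative log2 fold changes (median -5.78, or 1.94 against control 5 alone), and their groups overlapped. All 12 passed DESeq2, where 1373 of the 14385 genes with a DESeq2 adjusted p passed in that direction. The 12 hepatocyte genes were led by *Tat* (-7.19), *Cps1* (-6.82) and *Cyp2e1* (-6.20). Their summed level was 684, 130700 and 217100 CPM across controls 5, 6 and 7 and 1436 to 3622 CPM in treated tumors. With the hepatocyte score of each library as a covariate in edgeR, the median of the 9 NK cell genes was 0.99, with 0 of them past the adjusted threshold. Against control 5 alone, which had the lowest hepatocyte level, the median was 0.69. All 8 macrophage genes had positive values (median 0.96, or -0.56 when scaled by the *Cd3* genes), led by *Lyz2* (1.43), *Cd68* (1.22) and *C1qa* (1.08), and their summed level was 797 to 1612 CPM in the controls and 1536 to 4179 CPM in treated tumors. The 4 neutrophil genes tested had a median of 1.02 (-0.65 when scaled by the *Cd3* genes), with *S100a8* (1.71), *S100a9* (1.62) and *Csf3r* (0.41) the largest. Treated tumor 5 held the highest *S100a8* and *S100a9* levels (12.5 and 22.1 CPM), and the median was 0.28 without it, 2.06 without treated tumor 2 and -0.07 with voom. The 6 genes of conventional type 1 dendritic cells had a median of 0.10 (-0.56 when scaled by the pan-leukocyte genes), with *Cadm1* (0.67), *Flt3* (0.57) and *Clec9a* (-0.48) farthest from 0, and the median was 1.09 without control 5. The 4 B cell genes tested had a median of -0.40 (0.30 with library totals), with *Cd79a* (-1.06), *Pax5* (-0.68) and *Cd22* (0.35) farthest from 0, and the median was -1.26 without control 5. No gene of these lists was at 0 in all libraries, and none passed the edgeR test. The part of these cell types in the levels of the NK cell genes was not tested.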

How the data were processed

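RNA from 3 control and 3 GOx-DOX-LGP tumors was analysed, with groups and numbers taken from the labels. The deposited raw counts per gene carry no normalization. The methods name TopHat and HTSeq, whereas the submitters' processing notes list Trimmomatic 0.38, HISAT2 2.1.0 and featureCounts 2.0.0, and the genome build, annotation and strand setting are not given in the sources used here. The deposited signal values are the same counts divided by 1 size factor per library (0.532 to 1.32), computed by the authors, and were used only for gene symbols. The 10 genes and all other gene lists were chosen with earlier results of these data known.

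Counts were filtered with filterByExpr, which kept 15374 genes, scaled by TMM and tested by the quasi-likelihood test of edgeR 4.0.16 (R 4.3.3) over 6 libraries, without covariates. Adjustment was by Benjamini-Hochberg over all genes tested, with a threshold of 0.05. The labels number the libraries without naming animals, so p-values measure the spread between these samples, which may in part be technical. Floors of 3 counts cover counting error only, whereas SDs and SEs include the spread between libraries. DESeq2 1.42.0 on the same genes, limma voom with sample quality weights (limma 3.58.1), 5 other scalings, other filters, a hepatocyte covariate and leaving out libraries were alternatives, and DESeq2 without the filter was added after seeing the data. All 10 genes were named, and from each other list the 3 largest log2 fold changes, genes at 0 and fixed pathway partners. *Klrg1*, *Cd96* and *Fcer1g* were named after their values were seen. Positions and exon lengths are from GENCODE M21 (GRCm38), which holds all 55536 gene identifiers, and promoters from RefSeq. The steps were tested on simulated data with 200 changed genes. At a dispersion (spread between libraries) of 0.05, edgeR recovered 195 of them, DESeq2 189 and voom 195. At a dispersion of 0.25 they recovered 45, 90 and 28, so edgeR missed most of the changed genes there. Figures were drawn with matplotlib 3.10.9.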

Additional observations from a re-analysis of the deposited data

How the results depend on the processing

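With DESeq2 size factors, library totals, upper quartile or pan-leukocyte scaling, edgeR called 0 of all genes and 0 of the NK cell genes. The same held with the other filters and with a hepatocyte covariate. Scaling by the *Cd3* genes gave 10438 calls over all genes and 0 among the NK cell genes. The number of all genes with an adjusted p under 0.05 was 0 in the edgeR fit, 1516 with DESeq2, 9254 with limma voom with sample quality weights, 10438 with scaling by the *Cd3* genes and 1739 with DESeq2 without the filter, which was chosen after seeing the data. Of the NK cell genes, 2 passed with DESeq2, 6 with voom and 1, *Eomes*, with DESeq2 without the filter (0.686% of genes higher). Without 1 library, edgeR called 0 to 7745 of all genes and 0 to 6 NK cell genes, the highest numbers without control 5 and 0 without any other. NK cell genes that lay higher without overlap numbered 3 to 7 without 1 library. There were 7 without control 5, 5 without treated tumor 1 and 6 without treated tumor 2. Of all genes, 36.8%, 12.3% and 14.5% did so in these fits. Under either leukocyte scaling the number of NK cell genes was 0. The share of all genes was not computed for these scalings, so this 0 has no background beside it. The median log2 fold change of the NK cell genes lay between 0.77 (without treated tumor 5) and 1.76 (without control 5) without 1 library, and moved from 1.17 to 0.32 with pan-leukocyte scaling and to -0.46 with *Cd3* scaling. The latter gave *Ncr1* -0.60, *Klrk1* -0.93, *Klrd1* -0.50, *Klrc1* -0.13, *Eomes* -0.46, *Tbx21* -0.24 and *Xcl1* -0.69. *Klrk1* was -0.12 with pan-leukocyte scaling and -0.21 against control 5 alone, *Xcl1* -0.25 against control 5 alone, and *Ncr1* -0.59 with voom. The fits with a lone control assume that it varies like the treated tumors. The median of all genes, 0.02 with TMM, was 0.51 with library totals, -0.86 with pan-leukocyte scaling and -1.59 with *Cd3* scaling. The cause of these shifts was not tested. *Klrb1c* and *Xcl1*, at 0 to 20 counts, are limited by low counts. No paired analysis was possible because the groups share only number 5.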

Other observations

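*S1pr5*, the sphingosine 1-phosphate receptor by which mature NK cells leave lymphoid tissue, measured 0.0877, 6.87 and 8.18 CPM across controls 5, 6 and 7 and 0.395, 0.294 and 0.260 CPM in treated tumors 1, 2 and 5. Its levels divided controls 6 and 7 from the other 4 libraries, as those of *Alb* did, and not in the way of the 10 NK cell genes, and it was removed by the filter on low counts. *Itga2*, which encodes the integrin CD49b carried by NK cells, measured 41.9, 4.58 and 1.08 CPM across controls 5, 6 and 7 and 26.4, 24.4 and 16.2 CPM in treated tumors 1, 2 and 5, with control 5 highest of all libraries. Both genes were named after their values were seen.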
